A study of Mus musculus with 28 samples.

Results

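All 14 libraries of Dox-treated cells were compared with all 14 libraries of untreated embryoid bodies (EBs), with the cell line as a block, to find the expression changes that occur whichever transcription factor is induced. These 28 libraries are all 28 of the series. They come from 7 mouse embryonic stem cell (ESC) lines made in A2loxCre cells, with 2 libraries per line and condition. The lines are iAtoh1, iGfi1 and iPou4f3, which carry 1 transcription factor each, iG+A (Gfi1 and Atoh1), iG+P (Gfi1 and Pou4f3), iP+A (Pou4f3 and Atoh1), and iGPA (all 3). Each factor is thus encoded in 4 of the 7 lines. In every line the coding sequences are joined by self-cleaving 2A peptides, end with a Venus reporter and are driven by doxycycline (Dox) from 1 cassette. EBs, aggregates in which ESCs differentiate, were grown without LIF after the fibroblast feeder cells had been depleted, and the 2 replicates of a line are different clones.

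The Dox libraries come from EBs given 2 µg/ml Dox for 48 h and sorted for Venus+ cells at day 6. The No Dox libraries come from untreated EBs of the same lines at day 6, which were not sorted and hold every cell of the EB. Each Dox library therefore differs from its control in 4 respects: the drug, the active cassette, at least 1 induced factor, and the sort. These cannot be told apart here, since no line without a factor and no unsorted Dox sample is among the libraries. In such bulk samples, fewer cells of a type and less RNA per cell cannot be told apart either.

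Atoh1 is a basic helix-loop-helix factor that starts neuronal and mechanosensory hair cell (HC) programmes, Gfi1 is a zinc finger repressor, and Pou4f3 is a POU homeodomain factor of HCs and sensory neurons. The lines derive from an ESC system in which the inducible cassette is exchanged into a docking site next to the Hprt gene on the X chromosome, while the Dox-responsive transactivator is expressed from the Rosa26 locus. Doxycycline is also known to inhibit mitochondrial translation, and dissociation of tissue before sorting is known to raise immediate early genes. Day 6 EBs hold remaining pluripotent cells beside derivatives of the germ layers and visceral endoderm, the extraembryonic epithelium that secretes plasma proteins.

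The deposited values are log2(normalized count + 1), and the levels given here are the normalized counts they encode. A change is the difference of their log2 means, Dox minus No Dox, which understates the fold change of genes with few counts. Of 19421 genes, 16837 reached 10 normalized counts in at least 2 libraries and were tested with limma. A gene was called where its adjusted p was under 0.05, its log2 fold change was 1.5 or larger, up or down, and the sign of the change was the same in each of the 7 lines. The sums of normalized counts ran from 36751941 to 40380674 per library, with 17628 to 18074 genes above 0. The median change over all genes was -0.0036.

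The induced factors were checked first. Atoh1 had 14.3, 13546 and 21242 normalized counts (lowest, median, highest) in the Dox libraries and 3.02, 34.4 and 120.1 in the No Dox libraries. Its own change per line was 7.25 to 8.50 in the 4 lines that carry it and 0.78 to 2.70 in the other lines. Gfi1 changed by 6.51 to 7.42 in its 4 lines and by 0.14 to 1.65 in the others. Pou4f3 changed by 7.86 to 9.87 in its 4 lines and by 0.87 to 3.11 in the others. The change of 9.87 was that of iPou4f3, where Pou4f3 had only 7.93 and 2.22 normalized counts without Dox. With Dox it had 4694 and 5381 normalized counts there, against 10868 to 19883 in iG+P, iP+A and iGPA. Whether this lower level bears on the smaller changes of iPou4f3 given below was not tested. Each factor was thus far higher with Dox in the lines labelled with it, and all 3 passed the rule as called up. The counts do not separate transgene from endogenous transcripts.

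A total of 280 genes were called up and 253 down, which is 1.66% and 1.5% of the genes tested. Without the demand of the same sign in all lines, the calls were 556 up and 345 down. Of the difference, 176 rises and 67 falls had the sign in 6 lines, and the line that went the other way was most often iPou4f3 (54 and 28 genes). The sign alone, at any size of change, was shared by all 7 lines in 1419 genes that were up and 1502 that were down (8.43% and 8.92%). Of the 280 rises, 166 went up in each of the 14 same-numbered pairs of libraries, and of the 253 falls, 197 went down in each pair. The rule had already fixed the sign of each line's mean with the same libraries, so these counts are no separate evidence. Their share over all genes is not given here. Next to the threshold, Pcdh9 (1.501) was the rise just inside and C1ql1 (1.498) the one just outside, and Gcm1 (-1.504) and Syce1 (-1.497) were their counterparts among the falls. With the 7 lines instead of the 28 libraries as the units of the test, limma called 258 genes up and 252 down.

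Rises and falls differed in level and in evenness. The 280 rises had a median of the mean level of 28.9 normalized counts without Dox and 253 with Dox, and the 253 falls 170 and 46.9. An F test in limma asked, gene by gene, whether the Dox effect differed between the 7 lines. It was positive for 257 of the 280 rises (91.8%) and for 122 of the 253 falls (48.2%), beside 51.9% of all genes tested. The standard error of a single line's effect had a median of 0.45 for the rises, 0.57 for the falls and 0.18 for all genes. The median range of the effects over the 7 lines was 3.87 for the rises and 2.61 for the falls. The median change itself was 2.20 and -1.88, so that the range over lines was wide beside the change in both groups.

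Each line could be looked up in calls that did not use it. When the fit and the sign rule were applied to 6 lines, between 78.6% and 99.6% of the rises and between 85.6% and 98.2% of the falls had the same sign in the line left out. Over all genes tested, 46.4% to 52.1% had the upward and 47.9% to 53.5% the downward sign. A gene was counted as past the threshold in a line where it met both the adjusted p and the fold limit there. The iPou4f3 line shared least: 20.1% of the rises and 5.35% of the falls called in the other lines were past the threshold in iPou4f3, beside 1.47% and 0.606% of all genes. In iGPA these shares were 93.6% and 77.6%, beside 8.65% and 5.31% of all genes. They were 34.7% and 31.3% in iAtoh1 (all genes 2.89% and 2.52%), and 20.8% and 35.8% in iGfi1 (all genes 2.15% and 2.67%). In the lines with 2 factors they were 79.0% and 76.2% in iG+A (7.35% and 4.95%), 65.8% and 63.6% in iG+P (5.16% and 5.36%), and 61.2% and 38.02% in iP+A (4.7% and 2.58%). The line left out was thus above the share of all genes in both directions in each of the 7 cases. Every factor of that line is also encoded in lines of the fit. Changes common to any factor and changes of shared factors cannot be told apart this way. The called genes also have larger standard errors of a line's effect than all genes, which the comparison with all genes does not allow for. Across the 253 falls the median effect was -0.83 in iPou4f3 and -1.63 to -2.85 in the other lines. The iPou4f3 line had the smallest effect of the 7 in 141 of the 253 falls and in 91 of the 280 rises, and iGPA had the largest effect in 142 of the rises. Without the iPou4f3 line the rule returned 388 rises and 355 falls, against 233 and 223 without the iGPA line.

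**Figure D1:**
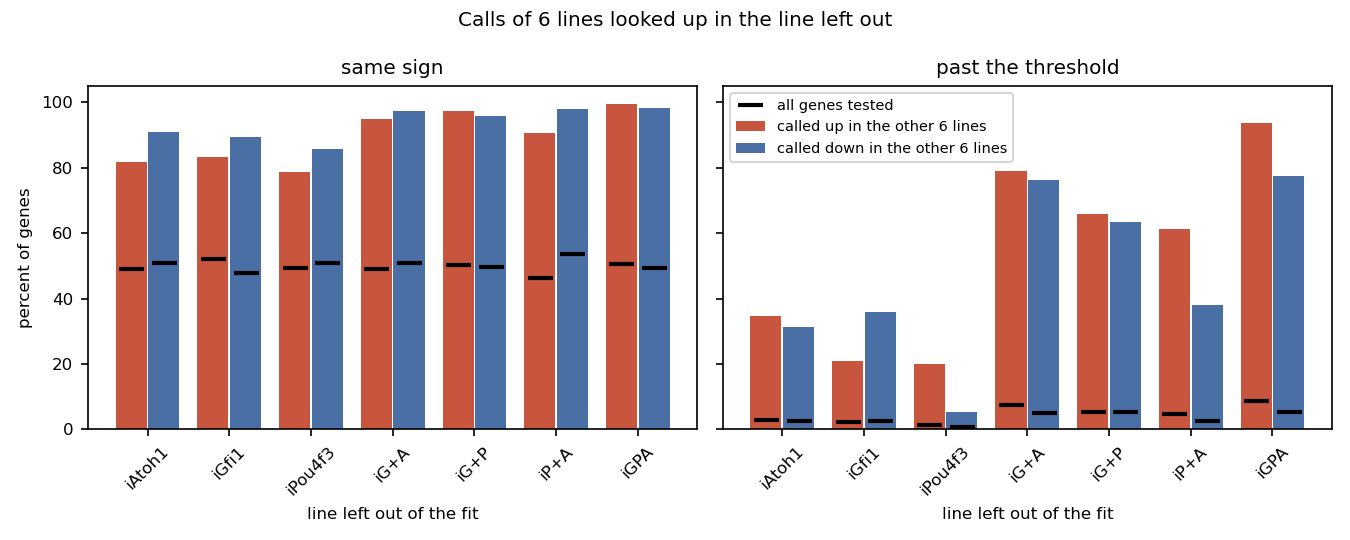
Percent of genes (y axis) called in 6 lines that had the same sign (left) or were past the threshold (right) in the line left out (x axis), for rises (red) and falls (blue). Black bars give the same share of all genes tested. Every bar lies above its black bar, with the lowest share past the threshold in iPou4f3 (5.35% of the falls).

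Hprt, the purine salvage enzyme beside which the cassette is inserted, was the gene with the smallest adjusted p among those named here. It had 277, 414 and 686 normalized counts in the No Dox libraries and 2454, 4502 and 9733 in the Dox libraries, so the lowest Dox library lay above the highest No Dox library. The change was 3.51 (standard error 0.19, limma adjusted p = 6.25e-11) and held in 14 of 14 pairs. Libraries of Dox and No Dox did not overlap in this way for 73 genes upward and 29 downward of all genes tested (0.434% and 0.172%), of which 37 and 11 were among the called genes. The lines differed in the size of the rise (F test, limma adjusted p = 3.17e-06). It was 2.28 in iAtoh1, 2.69 in iG+A, 3.14 in iP+A and 3.46 in iGPA, and 3.57 in iPou4f3, 4.68 in iGfi1 and 4.77 in iG+P, each with a standard error of 0.19. The 4 lines with an Atoh1 cassette thus had the 4 smallest rises, with 2454 to 4619 normalized counts with Dox, against 6955 to 9733 in the 3 lines without one. This ordering was seen in the values and was not tested.

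None of the tested genes around Hprt had a rise near its size. Hprt lies on chromosome X at 50341314 to 50374836 (plus strand, NCBIM37). The nearest tested gene upstream, Phf6, has its lower end 75.9 kb before that of Hprt and changed by 0.30. Plac1, a gene named for its expression in placenta on the other strand, whose lower end lies 81.9 kb beyond that of Hprt, fell by 3.63 on the log2 scale (standard error 0.46, limma adjusted p = 2.17e-06). Its levels were 874, 1329 and 2204 normalized counts without Dox and 9.48, 143 and 1059.8 with Dox, and its effect ran from -0.25 in iPou4f3 to -5.98 in iGPA. Of 17 tested genes with their lower end within 1000 kb of that of Hprt, Hprt included, only Hprt and Plac1 were called. Rtl8c (1.08), Zfp36l3 (0.77), Fam122b (-0.99) and Gpc3 (-1.24), named here after their values were seen, kept 1 sign in all 7 lines but were smaller than the threshold. In a list of 11 genes beside Hprt or at Rosa26, 4 rose and 4 fell at an adjusted p under 0.05 (36.4% each, beside 24.8% up and 24.3% down of all genes), with a median change of 0.12. Over the X chromosome as a whole, 10 genes were called up and 20 down of 612 tested (1.63% and 3.27%, beside 1.66% and 1.5% of all genes).

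**Figure D2:**
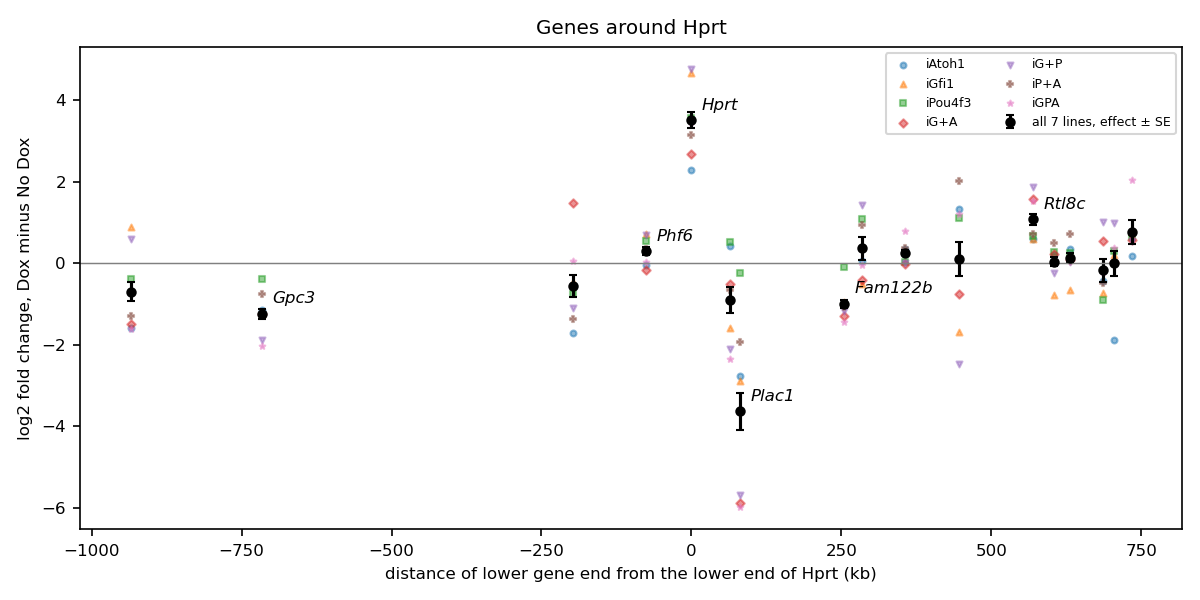
Log2 fold change, Dox minus No Dox (y axis), of the tested genes within 1000 kb of Hprt against the distance of their lower end from that of Hprt in kb (x axis). Black points with bars are the effect over all lines ± standard error, and coloured symbols the 7 lines; Hprt (3.51) stands alone above, and Plac1 (-3.63) below.

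The sequence next to these results is the start of Hprt itself, beside 2 of the starts of Stra6, a gene raised in all 7 lines that is described further on. They are given from RefSeq promoters of GRCm38.p6, each 300 bases long (250 before to 50 after the start) and on the plus strand. The capitals mark CAGCTG, an E-box of the kind that basic helix-loop-helix factors bind, searched on both strands, where it reads the same.
Hprt, chrX:52987828-52988127: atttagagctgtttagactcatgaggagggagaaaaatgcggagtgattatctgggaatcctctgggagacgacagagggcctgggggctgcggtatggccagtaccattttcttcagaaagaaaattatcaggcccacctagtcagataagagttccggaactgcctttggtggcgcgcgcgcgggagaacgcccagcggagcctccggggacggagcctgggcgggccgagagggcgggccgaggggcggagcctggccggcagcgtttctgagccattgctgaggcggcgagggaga
Stra6, chr9:58128838-58129137: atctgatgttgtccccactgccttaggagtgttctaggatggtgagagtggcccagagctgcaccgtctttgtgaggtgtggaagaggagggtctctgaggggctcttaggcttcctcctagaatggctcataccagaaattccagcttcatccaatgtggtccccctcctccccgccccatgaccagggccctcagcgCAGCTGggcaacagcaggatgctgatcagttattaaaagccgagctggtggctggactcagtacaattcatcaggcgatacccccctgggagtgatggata
Stra6, chr9:58134415-58134714: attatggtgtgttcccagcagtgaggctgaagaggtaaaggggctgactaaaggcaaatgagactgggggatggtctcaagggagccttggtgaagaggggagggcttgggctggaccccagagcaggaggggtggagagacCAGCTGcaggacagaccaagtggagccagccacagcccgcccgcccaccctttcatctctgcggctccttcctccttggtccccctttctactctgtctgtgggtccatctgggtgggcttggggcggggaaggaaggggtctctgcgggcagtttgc

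CAGCTG is in 3 of the 4 Stra6 promoters in the table and not in that of Hprt. Of the called genes, 191 rises and 183 falls had a promoter there. CAGCTG was in 27.3% of 256 promoters of the rises and 20.1% of 229 promoters of the falls, beside 16.5% of the promoters of all genes tested and 16.3% of all promoters. A core of the Gfi1 motif, AAATCA, searched on both strands as AAATCA or TGATTT, was in 10.2% of the promoters of the rises and 20.5% of those of the falls, beside 9.13% of the promoters of genes tested and 14% of all. The E-box CAGATG (or CATCTG) was in 21.9% and 15.3%, beside 12.6% of the genes tested and 17.2% of all, and the POU octamer ATGCAAAT (or ATTTGCAT) in 1.17% and 2.18%, beside 1.41% and 1.74%. The median GC content was 58.3% for the rises, 54.0% for the falls and 59.7% for the genes tested. These shares describe letters in a window, and their relation to GC content was not tested.

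Beside Hprt, 11 rises and 3 falls were past the threshold in every 1 of the 7 lines on its own. The rises were Prrxl1, Adam11, Kcnj12, Btnl10, Stra6, Zfp804a, Pla2g2f, Igfbpl1, Tmem121b, Grin2c and Adcy5, the last pair of them named after their values were seen, and the falls Rhox9, Rhox6 and Tfec. Prrxl1, a homeodomain factor of sensory neurons in the pain pathway, rose from 0, 2.51 and 8.40 normalized counts to 9.54, 44.0 and 2603. The groups did not overlap, and its change was 5.12 (standard error 0.51, limma adjusted p = 1.71e-07), with 2.66 in iGfi1 as the smallest line effect and 8.99 in iGPA as the largest. Stra6, the membrane receptor through which cells take up retinol from its plasma carrier, had 6.12, 13.996 and 23.3 normalized counts without Dox and 31.8, 569 and 2546 with Dox. Its change was 4.99 (standard error 0.38, limma adjusted p = 1.01e-08), again with no overlap, from 1.85 in iPou4f3 to 7.11 in iG+A. Kcnj12, an inward rectifier potassium channel, went from 6.36, 21.5 and 33.0 to 55.2, 369.8 and 1334 (4.48, standard error 0.39, limma adjusted p = 4.16e-08).

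**Figure D3:**
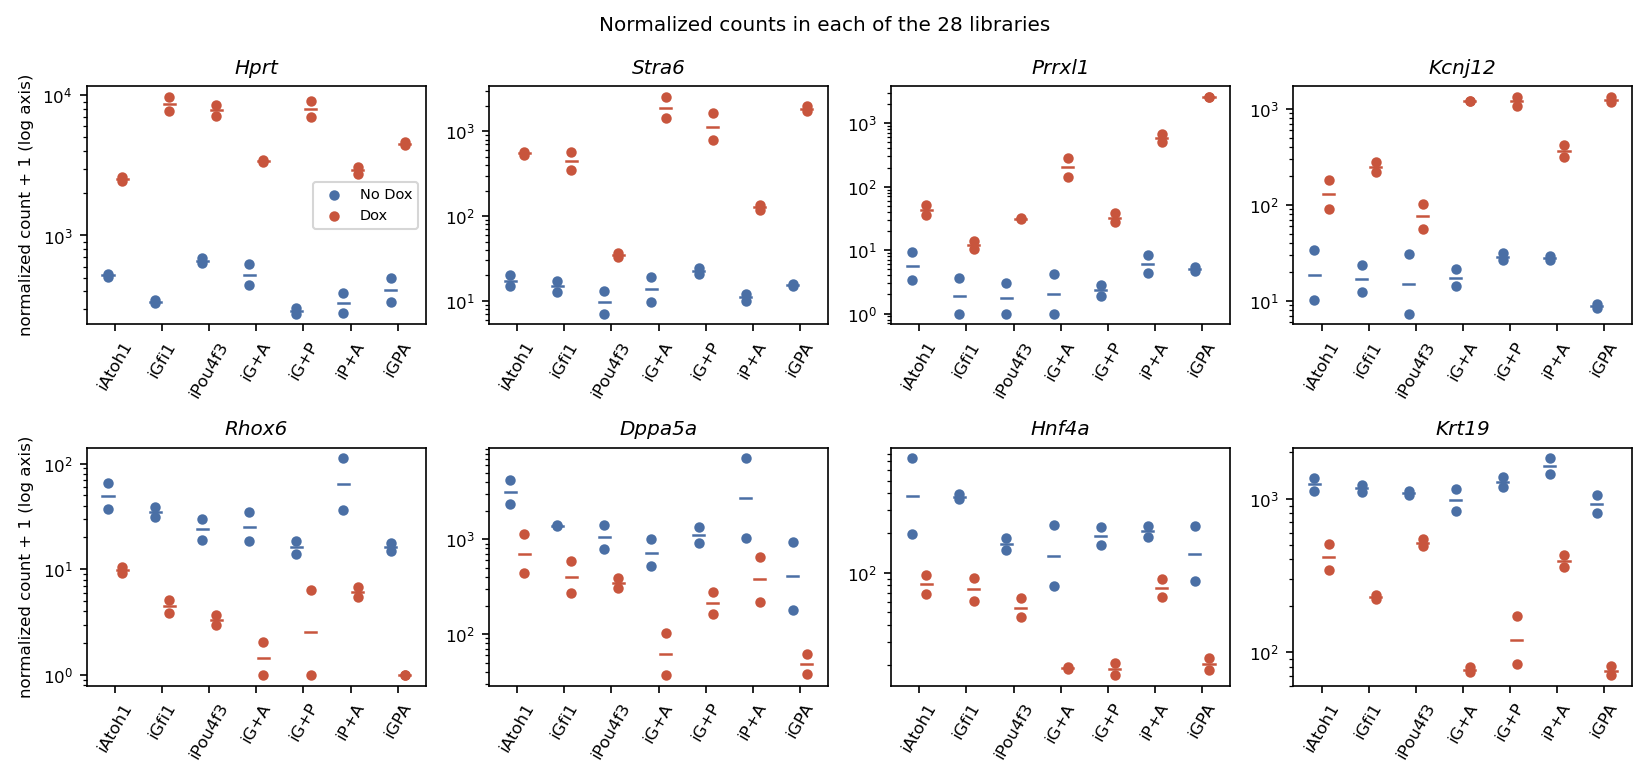
Normalized count + 1 on a log axis (y) in each of the 28 libraries by line (x axis), with No Dox in blue and Dox in red; points are libraries and short bars their geometric mean (n = 2). Dox and No Dox libraries do not overlap for Hprt, Stra6, Prrxl1, Kcnj12, Rhox6 and Krt19, while for Dppa5a and Hnf4a the 2 groups overlap between lines.

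The largest rise of all was that of Miat, a long non-coding RNA found in neurons. It had 4.64, 25.7 and 80.1 normalized counts without Dox and 66.7, 2155 and 24585 with Dox (6.48, standard error 0.64, limma adjusted p = 1.59e-07). The effect was 1.39 in iGfi1 and 7.21 or more in the 5 lines other than iGfi1 and iAtoh1 (2.95). Adam11, a member of the ADAM family without protease activity, changed by 5.14 and ran from 45.2, 80.7 and 155 to 322, 3623 and 23204, with no overlap. Btbd17 (5.24), Insm1 (4.82), Pla2g2f (4.81), Myt1 (4.69), Rtn4rl2 (4.31), Btnl10 (4.25), Fam78b (4.23), Tmem121b (4.12), Igfbpl1 (3.97) and Kcng1 (3.94) completed the largest rises that held in all 14 pairs. Insm1 and Myt1 are zinc finger factors of neuronal and neuroendocrine differentiation, Pla2g2f is a secreted phospholipase A2, Rtn4rl2 a receptor related to the Nogo receptor, and Kcng1 a modifier subunit of potassium channels. Their line effects were uneven: Insm1 changed by 0.37 in iGfi1 and 8.93 in iGPA, and Myt1 by 0.86 in iGfi1 and 10.05 in iP+A. Among the rises with the largest smallest effect were also Rtl5, a gene of retrotransposon origin on the X chromosome (5.07, line effects 2.18 to 7.95), and Zfp804a, a zinc finger gene (3.57, 2.10 to 5.32). Rtl5 was at 0 in 6 of the No Dox libraries and at 111 normalized counts in the median Dox library, and 1 of its 14 pairs showed no change. That pair is of iPou4f3, whose effect of 2.18 rests on Dox replicate 2 alone (19.6 normalized counts, against 0 in the other libraries of that line).

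The falls whose smallest line effect was largest included genes of pluripotent and germ cells. Rhox6 and Rhox9 belong to a cluster of reproductive homeobox genes on the X chromosome. Rhox6 had 13.1, 29.5 and 111 normalized counts without Dox and 0, 2.79 and 9.47 with Dox, so the groups did not overlap. It fell by 3.19 on the log2 scale (standard error 0.26, limma adjusted p = 1.48e-08), with line effects from -2.32 to -4.14 that the F test did not call different (adjusted p = 0.50). Rhox9 had 8.84, 40.8 and 128 without Dox and 0, 3.65 and 14.4 with Dox (-3.20, standard error 0.25, limma adjusted p = 1.21e-08). Reads of near-identical Rhox copies may be split between them. Of 12 Rhox genes tested, a family looked up after these values were seen, 4 were called down by limma (5 fell and 1 rose at an adjusted p under 0.05), beside 1.5% of all genes called down and 24.3% down and 24.8% up at that p, with a median change of -0.59 that kept its sign under both rescalings tried.

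Of 24 pluripotency genes tested, 11 were called down and none up by limma, and 18 passed an adjusted p under 0.05 downward and none upward (18 and 0 at an unadjusted p under 0.05), beside 24.3% and 24.8% of all genes. The median change was -1.22, with a median in every single line between -0.76 (iGPA) and -2.34 (iP+A). Of the 14 No Dox libraries, iP+A No Dox replicate 2 had the highest level of 19 of the 24 genes, and iGPA No Dox replicate 2 the lowest of 19. Without the first, the list median was -0.87 in iP+A and -1.05 over all lines, and without the second -1.22 in iGPA and -1.36 over all lines. The size of the fall in a single line rested on single libraries. In iGPA the median was -0.16 without No Dox replicate 1, and in iP+A -3.64 without No Dox replicate 1. In iGfi1 it was -0.44 without Dox replicate 2 and -1.42 without Dox replicate 1, and in iPou4f3 -0.61 without No Dox replicate 2 and -0.63 without Dox replicate 1. In iG+A it was -0.62 without Dox replicate 1, -2.17 without Dox replicate 2 and -0.82 without No Dox replicate 2. The median stayed below 0 in each line, and with any 1 of the 28 libraries left out 18 genes fell and none rose at an adjusted p under 0.05 over all lines. These values were added after the data had been seen. Dppa3, a maternal factor also expressed in ESCs and germ cells, went from 26.5, 132 and 519 normalized counts to 2.13, 16.1 and 71.2 (-3.11, standard error 0.31, limma adjusted p = 1.80e-07). Dppa5a, an RNA-binding protein of ESCs, went from 178, 1182 and 7122 to 36.0, 275 and 1129.5 (-2.49). Utf1, a chromatin protein of undifferentiated cells, went from 42.2, 387 and 2147 to 13.8, 74.9 and 328 (-2.43).

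The untreated libraries varied widely in these genes, and Dox and No Dox overlapped for all of Dppa3, Dppa5a and Utf1. Each fell in all 14 pairs, but the pairs hold the same libraries as the calls and give no separate support. Tcl1 (-2.51), a co-activator of Akt, Dppa2 (-1.90) and Esrrb (-1.72), an orphan nuclear receptor of the ESC network, also fell in all 14 pairs. The F test called 1 of the 24 genes different between lines (4.17%), beside 51.9% of all genes. The standard error of a line's effect was larger for this list, with a median of 0.71 against 0.18 for all genes, so that only large differences between lines could be called. Gm9 (-2.79), Gstm3 (-2.78), a glutathione S-transferase, Slamf1 (-2.69), a cell surface receptor, and Gabrp (-2.24), a subunit of the GABA-A receptor, were the other falls with the largest smallest effect, from -1.62 to -1.71 in the line where each was smallest. Tfec (-3.02), a factor of the MiT family, had 32.5, 73.4 and 101 normalized counts without Dox and 1.22, 7.21 and 27.4 with Dox, and its effects differed between lines (F test, limma adjusted p = 0.0027). Rpl10l, a retrogene copy of the ribosomal protein gene Rpl10 with which it may share reads, fell by 1.88 from a median of 21.6 to 5.26 normalized counts.

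**Figure D4:**
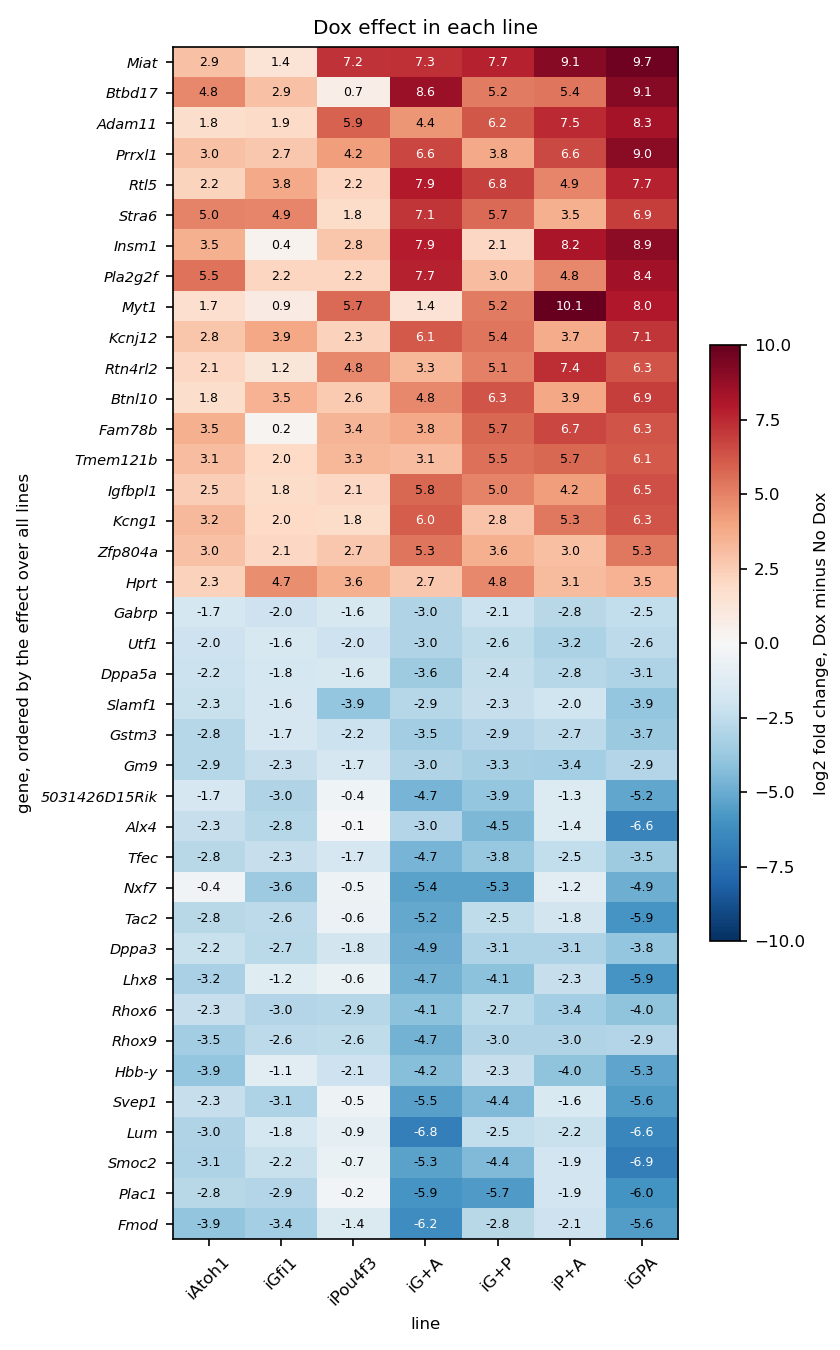
Log2 fold change, Dox minus No Dox (colour and printed value), in each of the 7 lines (columns). Rows are the largest rises and falls and those with the largest smallest line effect. Every cell of a row has the same sign, as the rule demands. The rows run from narrow ranges (Hprt 2.28 to 4.77, Utf1 -1.62 to -3.16) to wide ones (Myt1 0.86 to 10.05, Alx4 -0.12 to -6.61).

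Visceral endoderm genes fell as well. Of 31 genes of visceral and parietal endoderm tested, 8 were called down and none up by limma, 25 were down and 1 up at an adjusted p under 0.05 (26 and 1 unadjusted), and the median change was -0.95. Over all genes, 1.5% were called down, and 24.3% fell and 24.8% rose at an adjusted p under 0.05. The list median was below 0 in all 7 lines, from -0.49 in iPou4f3 to -1.43 in iG+P. Rbp4, the plasma carrier of retinol that Stra6 binds, had 179.6, 696 and 1306 normalized counts without Dox and 26.9, 138 and 350.3 with Dox (-2.43, standard error 0.22, limma adjusted p = 5.04e-08). Hnf4a, the nuclear receptor that drives many endodermal plasma protein genes, went from 78.6, 209 and 736 to 15.7, 52.4 and 94.7 (-2.37, standard error 0.22, limma adjusted p = 1.06e-07). The plasma protein genes Ttr (-2.64), Apob (-2.48) and Afp (-2.32), and Plat (-2.49), which encodes tissue plasminogen activator, were called too. All but Plat fell in 14 of 14 pairs, and the F test called none of them different between lines except Plat, which ran from -0.15 in iPou4f3 to -4.12 in iG+P. The summed level of the list was 100701 to 164121 normalized counts in the No Dox libraries and 49559 to 118463 in the Dox libraries.

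The 15 largest falls held Plac1, Rhox6, Rhox9, Dppa3 and Tfec, described above, and genes of several other kinds. Fmod (-3.64) and Lum (-3.39) encode collagen-binding proteoglycans, Smoc2 (-3.51) and Svep1 (-3.28) other extracellular matrix proteins, and Alx4 (-2.96) a homeodomain factor of limb and craniofacial mesenchyme. Fmod had 17.4, 212 and 670.2 normalized counts without Dox and 1.22, 7.77 and 206 with Dox, and fell in all 14 pairs (standard error 0.45, limma adjusted p = 1.95e-06). Its effect ran from -1.44 in iPou4f3 to -6.24 in iG+A. Smoc2 went from 1348, 4596 and 9216 to 65.0, 310.2 and 3479, and changed by -0.69 in iPou4f3 and -6.88 in iGPA. Lhx8 (-3.16), a LIM homeodomain factor, Hbb-y (-3.27), Tac2 (-3.05), the precursor of neurokinin B, Nxf7 (-3.03), of the nuclear RNA export factor family, and 5031426D15Rik (-2.87) were other large falls. Of the line effects of Smoc2, Svep1, Alx4, Lum, Plac1, Lhx8, Tac2, 5031426D15Rik and Fmod, that of iPou4f3 was the smallest, while for Nxf7 it was that of iAtoh1 (-0.35) and for Hbb-y that of iGfi1 (-1.07).

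Of 21 fibroblast genes tested, 5 were called down and none up by limma (13 down and 1 up at an adjusted p under 0.05, 15 and 1 unadjusted), with a median change of -0.97, again beside 1.5% of all genes called down and 24.3% down and 24.8% up at an adjusted p under 0.05. Col1a2 (-2.62), Col1a1 (-1.96) and Col3a1 (-1.68) encode fibrillar collagens and Postn (-1.90) a matrix protein. Col1a1 had 26229, 44826 and 62112 normalized counts without Dox and 3672, 14366 and 37163 with Dox. The median of the list was -0.27 in iPou4f3 and -1.92 in iGPA. Without the iGPA line Col3a1 (-1.35) was below the threshold, and it was at -1.499 without the library of iGPA Dox replicate 1. Feeder fibroblasts express these genes too, and their part in the difference was not tested.

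For the lists that follow, the shares over all genes were 1.5% called down, 1.66% called up, and 24.3% down and 24.8% up at an adjusted p under 0.05. Among 20 epithelial genes, the simple epithelial keratins Krt19 and Krt18 were called down and 14 fell at an adjusted p under 0.05, while none rose, by limma or at an unadjusted p under 0.05 (70.0% down, median -0.73). Krt19 went from 798, 1138 and 1827 normalized counts to 69.5, 226 and 545, with no overlap (-2.54, standard error 0.22, limma adjusted p = 3.99e-08). Among 22 blood genes, Hbb-y, an embryonic beta-like globin, and Gfi1b, a paralogue of Gfi1, were called down. Hbb-y had 585, 4509 and 16036 normalized counts without Dox and 72.2, 308 and 5075 with Dox (-3.27, standard error 0.39, limma adjusted p = 1.19e-06). The blood list otherwise did not move 1 way in all lines: its median was -2.20 in iAtoh1 and 0.79 in iGfi1, and 21 of its 22 genes differed between lines. Gfi1b (-1.57) was below the threshold without the iAtoh1, iG+A or iGPA line (-1.37, -1.29 and -1.46). It was below it as well with any 1 of 4 libraries left out, namely iAtoh1 No Dox replicate 2 (-1.46), iAtoh1 Dox replicate 1 (-1.49), iG+A No Dox replicate 1 (-1.46) and iG+A Dox replicate 1 (-1.45). Of the blood genes 2 rose and 10 fell at an adjusted p under 0.05 (9.09% and 45.5%).

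Pecam1, an adhesion molecule of endothelial cells and also of ESCs, was the only endothelial gene called of 20, and fell by 1.62 on the log2 scale, from 2469, 3068 and 3899.8 to 332, 1101 and 2226 with no overlap. Without the iG+P line its change was -1.36. The list had 3 rises and 6 falls at an adjusted p under 0.05 (15% and 30.0%, beside 24.8% and 24.3% of all genes) and a median of 0.01 (-0.06 after quantile normalization). Acta2 (-2.24), the smooth muscle actin, and Myh7 (-1.54), a cardiac myosin, were called of 23 muscle genes (3 up and 8 down at an adjusted p under 0.05, 13.0% and 34.8%, median -0.16). Myh7 was below the threshold without the iGfi1 (-1.24) or the iG+P line (-1.36), and with any 1 of 10 libraries left out: all 4 of iGfi1, and iPou4f3 No Dox replicate 2 and Dox replicate 1, iG+A replicate 2 of both conditions, and iG+P No Dox replicate 2 (-1.40) and Dox replicate 1, with values from -1.48 to -1.40. Among 20 genes of primitive streak and early mesoderm none was called by limma (7 up and 4 down at an adjusted p under 0.05, 35% and 20%, and 7 and 5 unadjusted). The list median was 0.42, and 3 genes were past the threshold up and 1 down without keeping 1 sign in all lines. Hand1, a mesodermal factor of that list, went from a median of 29109 to 5716 normalized counts (-1.70), but was higher with Dox in 3 of the 7 lines. Pdgfra, a mesodermal receptor, had medians of 6175 and 4502 (-0.59).

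Of 36 general neuronal genes tested, 11 were called up, beside 1.66% of all genes. In this list, 28 were up and 1 down at an adjusted p under 0.05, and the median change was 1.38. The median was 0.12 in iGfi1 and 3.51 in iP+A, and the F test called 33 of the 36 different between lines. Nhlh1, a helix-loop-helix factor of young neurons, had 2.95, 7.43 and 17.3 normalized counts without Dox and 4.83, 297 and 3430.3 with Dox (5.24, standard error 0.55, limma adjusted p = 2.52e-07). Dcx, a microtubule protein of migrating neurons, went from 4.51, 11.8 and 17.4 to 19.3, 71.8 and 458 with no overlap (3.16, standard error 0.35, limma adjusted p = 4.76e-07). Nhlh2 (3.77), a relative of Nhlh1, and Syt1 (1.96), the calcium sensor of synaptic vesicles, were called too, but changed by 0.52 in iG+P and 0.08 in iGfi1, respectively.

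Genes of the Notch pathway, by which neighbouring cells restrain one another's differentiation, and of HCs were read against 1.66% of all genes called up and 24.8% up at an adjusted p under 0.05. Dll3, a divergent Notch ligand, went from 39.3, 101 and 315 to 42.7, 2579 and 8832 normalized counts (4.22), and Hes6, an antagonist of the Notch effector Hes1, from 279, 373 and 499 to 366, 3318 and 6639 (2.44). Their smallest effects were 0.41 and 0.24, both in iPou4f3, and these 2 were the only called genes of 23 in the list, of which 14 rose (60.9%) and 1 fell at an adjusted p under 0.05. Of 30 HC genes (18 up, 60.0%, and 2 down at an adjusted p under 0.05, median 0.90), 4 were called, namely Gfi1 itself, Barhl1 (3.54), Slc17a8 (2.48) and Rasd2 (1.93). Barhl1 is a homeodomain factor of HCs and of cerebellar neurons, and Slc17a8 a vesicular glutamate transporter of inner HCs. Slc17a8 changed by 0.01 in iAtoh1 and in iPou4f3 and by 6.95 in iG+P, and was not called with the 7 lines as units (limma adjusted p = 0.082). Of 20 neural progenitor genes (7 up, 35%, and 2 down at an adjusted p under 0.05, median 0.38), Pax3 (3.29) and Zic2 (1.58), factors of the dorsal neural tube, were called, and Zic2 was below the threshold after quantile normalization (1.497), without the iG+A, iG+P or iGPA line (1.49, 1.40 and 1.28), and with any 1 of 5 libraries left out (iG+A No Dox replicate 1, 1.44, and Dox replicate 2, 1.44, iG+P Dox replicate 1, 1.496, iGPA No Dox replicate 2, 1.44, and Dox replicate 1, 1.44). Hrk, a BH3-only activator of apoptosis, was the only called gene of 17 apoptosis regulators (2 up, 11.8%, and 3 down at an adjusted p under 0.05, median -0.05), with a change of 2.35 (from a median of 43.1 to 229 normalized counts).

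**Figure D5:**
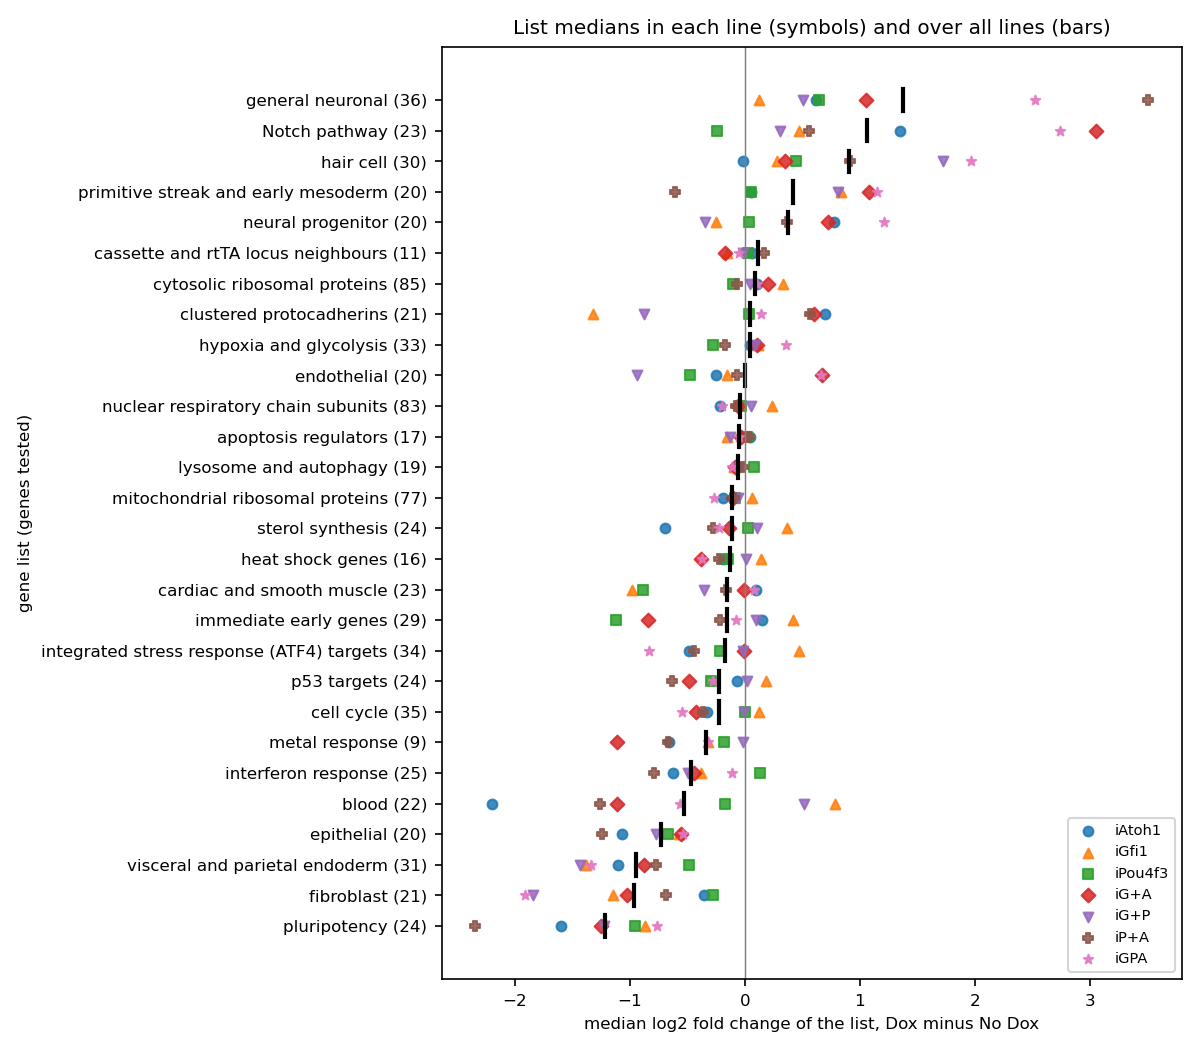
Median log2 fold change, Dox minus No Dox (x axis), of each gene list (y axis, number of genes tested in brackets) in each line (coloured symbols) and over all lines (black bars). All 7 lines lie below 0 for pluripotency (over all lines -1.22), visceral and parietal endoderm (-0.95), fibroblast (-0.97), epithelial (-0.73) and metal response genes (-0.34). All 7 lie above 0 for general neuronal genes (1.38).

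Lists of genes known to respond to dissociation or stress were read against all genes, of which 1.66% were called up and 1.5% down, so that 0 or 1 call in a list of this size is near that share. Of 29 immediate early genes, none was called up by limma (2 rose and 6 fell at an adjusted p under 0.05, and 3 and 8 at an unadjusted one). Ccn1, a matricellular immediate early gene, was called down, from 2999, 9779 and 18268 normalized counts to 917, 3422 and 17724 (-1.55, standard error 0.28, limma adjusted p = 0.000114), and was below the threshold without the iG+A, iG+P or iGPA line (-1.29, -1.48 and -1.36). With 1 library left out it was so for each of the 4 of iG+A, for iG+P No Dox replicate 2 and Dox replicate 1, and for replicate 1 of both conditions of iGPA, with values from -1.44 to -1.49. The list median was -0.16 over all lines, and -1.12 in iPou4f3 and 0.42 in iGfi1. Of 16 heat shock genes and 24 p53 targets none was called by limma. At an adjusted p under 0.05, 2 heat shock genes rose and 8 fell, and 2 p53 targets rose and 11 fell, the same numbers as unadjusted. The falls were 50% and 45.8% of these lists, beside 24.3% of all genes, with median changes of -0.13 and -0.22. In iGfi1 the medians were 0.14 and 0.19 and in iG+P 0.01 and 0.02. Of the 16 and 24 genes, 2 heat shock genes and 1 p53 target were lower with Dox in all 7 lines, beside 8.92% of all genes. Hsp90ab1, a cytosolic chaperone, had medians of 194664 without and 183623 with Dox (-0.06, but 0.09 after quantile normalization), Hspa8 changed by -0.29, and the p53 targets Ccng1 and Rrm2b by -0.45 and 0.08.

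Of 77 genes for mitochondrial ribosomal proteins, none was called by limma in either direction, although 38 fell and 2 rose at an adjusted p under 0.05 (40 and 4 unadjusted), with a median change of -0.11. These are 49.4% down and 2.60% up, beside 24.3% and 24.8% of all genes, so the small changes of this list were mostly downward. Of the 77 genes, 9 were lower in all 7 lines, beside 8.92% of all genes, and the median was 0.06 in iGfi1. Mrpl24 (0.05) and Mrpl15 (-0.02, and 0.00 after quantile normalization) were the members of highest level. Of 83 nuclear genes for subunits of the respiratory chain none was called (6 up and 11 down at an adjusted p under 0.05, 8 and 18 unadjusted; median -0.04), and Atp5b and Atp5a1, of the ATP synthase, changed by -0.11 and 0.01. Of 34 targets of ATF4, the factor that carries the response to mitochondrial stress, none was called (1 up and 12 down at an adjusted p under 0.05, 1 and 13 unadjusted; median -0.17). The list ran from -0.83 in iGPA to 0.47 in iGfi1, and 29 of the 34 genes differed between lines. Gars, a tRNA synthetase, changed by -0.29, and Aldh18a1, an enzyme of proline synthesis, by -0.67 with a standard error of 0.48. RNA encoded in the mitochondrial genome was not analysed here.

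Of 35 cell cycle genes, none was called by limma, but 26 fell and none rose at an adjusted p under 0.05 (27 and 1 unadjusted), which is 74.3% down, beside 24.3% of all genes down and 24.8% up. The median was -0.22, and Mki67 and Top2a changed by -0.26 and -0.22. The fall was not shared by all lines: 1 of the 35 genes was lower with Dox in all 7 lines, beside 8.92% of all genes, and 27 differed between lines. The list median was -0.33 to -0.55 in iAtoh1, iP+A, iG+A and iGPA, -0.0023 in iPou4f3, -0.0050 in iG+P and 0.12 in iGfi1, and Mki67 was higher with Dox in 2 and Top2a in 3 of the 7 lines. Of 85 cytosolic ribosomal protein genes, 34 rose and 4 fell at an adjusted p under 0.05 with a median of 0.09, and Rpl10l was the only one called. Of 25 interferon response genes, Ifit3 (-1.88) and Psmb8 (-1.67) were called down (3 up and 12 down at an adjusted p under 0.05, median -0.47), from medians of 28.8 and 34.9 to 5.00 and 8.77 normalized counts. Psmb8 was below the threshold without iG+A Dox replicate 1 (-1.49) or iP+A No Dox replicate 2 (-1.48). Ndrg1 (-1.64), a hypoxia-responsive gene, was the only called gene of 33 of hypoxia and glycolysis (7 up and 7 down at an adjusted p under 0.05, median 0.04), and was below the threshold without the iG+P line (-1.46). No gene was called by limma among 24 of sterol synthesis (3 up and 3 down at an adjusted p under 0.05, 4 and 3 unadjusted), 9 of the metal response (0 and 3, 0 and 4), 19 of lysosome and autophagy (4 and 5, 4 and 6) and 21 clustered protocadherins (2 and 5, 3 and 5). The protocadherins ran from -2.95 to 5.32, with 1 gene past the threshold up and 4 down that did not keep 1 sign in all lines, and 20 of the 21 differed between lines. The sterol genes ran from -0.40 to 1.95, with 1 past the threshold up that likewise did not keep its sign. Their members of highest level were Hmgcs1 (-0.15) and Srebf2 (0.11), Fth1 (-0.34) and Tfrc (-0.22), Lamp1 (-0.15) and Psap (-0.02, but 0.05 after quantile normalization), and Pcdhgc3 (-0.61) and Pcdhgb8 (-0.11). The lists held 23 of the 280 rises and 37 of the 253 falls.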

How the data were processed

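The authors prepared RNA-seq libraries from total RNA. Per the study's methods and the submitters' processing notes, they used cutadapt for trimming, kallisto against knownGene transcripts (UCSC, mm9), tximport for gene sums and DESeq2 for normalization; versions are not given in the sources used here. The deposited table holds log2(normalized count + 1) per library for 19421 genes by Entrez ID, of which 19314 matched a symbol; coordinates are from GENCODE on NCBIM37. Raw counts were not used here, so no count test was run, and sums of normalized counts do not give the depth.

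Genes reaching 10 normalized counts in 2 or more libraries entered limma 3.58.1 (R 4.3.3), with a mean-variance trend and a model of line and Dox (20 residual degrees of freedom). Effects of single lines and the F test of their differences came from a fit of 14 groups (14 residual degrees of freedom). p-values were adjusted by Benjamini-Hochberg over all genes tested. The fit was tested on simulated data with changes alike in all lines, which does not cover effects that differ between lines. Replicates are different clones, per the series record. Deviations from the group means of same-numbered Dox and No Dox libraries correlated by 0.103 to 0.246 across genes in the 7 lines, so the numbers were taken to pair libraries, and the pairing was fitted as an alternative.

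The comparison and the 29 gene lists were chosen with earlier results of these data known. Genes are named by rule: the 3 transgenes, the 15 largest rises and falls with 1 sign in all 7 lines and 14 pairs (without genes at 0 in 1 and over 50 normalized counts in another No Dox library), the 10 rises and falls with the largest smallest line effect, and up to 6 called members of each list, or the 2 of highest level where none was called. Genes nearest to the threshold are named for that. Alternatives were other pseudocounts, filters, normalizations, designs and fold thresholds, and each line and each library left out.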

Additional observations from a re-analysis of the deposited data

Results flagged for a closer look

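The size of the Dox effect differed between the 7 lines for 257 of the 280 genes called up and for 122 of the 253 called down, by limma's F test with Benjamini-Hochberg adjustment. The adjusted p of that test is given here for each named gene it called. The rule for calls demanded the same sign in all 7 lines, so the shared direction is fixed by the choice of genes, and some line effects were within their standard error of 0 (Slc17a8 0.01 in iAtoh1, standard error 0.85). For the transgenes, which only some lines carry, it was 7.67e-10 for Atoh1, 7.47e-11 for Gfi1 and 1.01e-08 for Pou4f3.

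Among the largest rises and those past or near the threshold in every line it was 1.84e-06 for Miat, 7.19e-05 for Btbd17, 5.22e-09 for Adam11, 0.000227 for Prrxl1, 5.12e-06 for Stra6, 5.64e-08 for Insm1, 9.22e-07 for Pla2g2f, 8.87e-09 for Myt1, 0.000431 for Kcnj12 and 1.09e-07 for Rtn4rl2. It was 5.4e-06 for Btnl10, 1.42e-07 for Fam78b, 0.00248 for Tmem121b, 2.34e-05 for Igfbpl1, 0.000214 for Kcng1, 3.17e-06 for Hprt, 0.00252 for Rtl5, 0.00945 for Zfp804a, 9.22e-07 for Grin2c and 4.89e-05 for Adcy5. For the called genes of the neuronal, neural progenitor, HC, Notch and apoptosis lists it was 0.00342 for Pax3, 1.69e-06 for Nhlh1, 5.55e-05 for Nhlh2, 8.26e-05 for Dcx, 0.000145 for Syt1, 2.07e-06 for Barhl1, 0.000377 for Slc17a8, 0.0126 for Rasd2, 0.000356 for Dll3, 1.9e-08 for Hes6 and 2.66e-06 for Hrk.

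Among the largest falls it was 0.0237 for Fmod, 5.94e-07 for Plac1, 0.00019 for Smoc2, 0.00464 for Lum, 0.000467 for Svep1, 0.0372 for Hbb-y, 0.000483 for Lhx8, 0.0056 for Tac2, 8.88e-08 for Nxf7, 0.0027 for Tfec, 0.000391 for Alx4 and 2.9e-06 for 5031426D15Rik. For called genes of the other lists it was 0.0237 for Ccn1, 0.00149 for Ifit3, 0.0012 for Ndrg1, 2.69e-07 for Plat, 0.00028 for Pecam1, 5.42e-05 for Gfi1b, 0.00079 for Acta2, 0.000256 for Col1a2, 0.0019 for Col1a1, 3.33e-05 for Krt19 and 0.00496 for Krt18. Groups of 2 libraries were not examined for outlying libraries.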

How the results depend on the processing

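The counts of genes called with 1 sign in all 7 lines, 280 up and 253 down, stayed within 1.5 times under other pseudocounts, filters, normalizations and designs. A fold threshold of 1 gave 521 falls, and no minimum fold change 1404 rises and 1471 falls. With the 7 lines as units, 2928 genes had an adjusted p under 0.05, against 8262 with libraries as units. Leaving out each library in turn gave 256 to 304 rises, 230 to 271 falls, 7670 to 8414 genes at an adjusted p under 0.05 and 7779 to 9121 genes whose Dox effect differed between lines. With the replicate block, in which same-numbered libraries of a line form pairs, the calls were 280 up and 253 down, 7477 genes had an adjusted p under 0.05 and 9987 differed between lines, and it changed no call of a named gene.

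Of 80 called genes named in the text, 12 lost their call in at least 1 of 45 alternatives and none changed sign. A pseudocount of 5 moved Gm9 to -1.44, Ifit3 to -1.41, Psmb8 to -1.26 and Rpl10l to -1.33, genes of few counts. Signs changed only for named genes near 0 that were not called. Psap was 0.0472 after quantile normalization, 0.0177, 0.0163 and 0.0179 without the iGfi1, iG+A and iGPA line, and -0.0526 to 0.0015 with 1 library left out. Mrpl15 was 0.0010 after quantile normalization, 0.0131 and 0.0154 without the iPou4f3 and iP+A line, and -0.0432 to 0.0057 with 1 library left out. Atp5a1 was -0.0359 and -0.0054 without the iGfi1 and iG+P line, and -0.0075 to 0.0244 with 1 library left out. Pcdhgb8 was 0.0307 and 0.0310 without these lines, and Hsp90ab1 0.0896 after quantile normalization. The cause of these changes was not tested. With 2 libraries per group, the effect of a line has a median standard error of 0.184.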
